A study of Mus musculus with 27 samples.

Results

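Retinoic acid is made from retinal by retinaldehyde dehydrogenases, is carried in the cytoplasm by cellular retinoic acid-binding proteins and is cleared by cytochrome P450 enzymes of the Cyp26 family. The 9 genes described here cover those steps: Aldh1a1, Aldh1a2 and Aldh1a3 for synthesis, Dhrs3 for the return of retinal to retinol, Crabp1 and Crabp2 for binding, and Cyp26a1, Cyp26b1 and Cyp26c1 for degradation. They were matched by symbol to the Ensembl identifiers of the deposited gene tables, and all 9 of the 48795 genes listed there were found. All 9 also passed the filter on low counts. The balance of these enzymes sets how much retinoic acid a cell holds, and several of their genes are textbook targets of the retinoic acid receptors. In the embryo Aldh1a2 supplies the trunk mesoderm and Cyp26a1 protects the early streak and tailbud, while Cyp26b1 shields germ cells in the fetal testis.

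Bulk RNA-seq was made from 27 libraries in 9 groups of 3, following mouse XY embryonic stem cells on a route towards gonadal somatic cells. All groups came from clone 7 of a line that carries the Tesco-CFP reporter and R26-rtTA on an F1 background of C57BL/6 x CBA, so that 1 clone stands for the whole series. The embryonic stem cells (ESC) were kept in 2i/LIF and passed once in serum replacement with LIF, and the labels do not say which of these gave the ESC libraries. Epiblast-like cells (EpiSC in the sample names) grew for 2.5 days in N2B27 lacking vitamin A, to which serum replacement (1%), Activin A (20 ng/ml) and bFGF (12 ng/ml) were added. Early mesoderm (M) then grew for 36 hours in a defined medium with 20 ng/ml bFGF, 10 uM LY294002 and 10 ng/ml BMP4. The 5 intermediate mesoderm media (IM1 to IM5) all held 5 ng/ml bFGF and 20 ng/ml BMP. IM1 had nothing further, and IM3 added 100 nM retinoic acid. IM2 held retinoic acid and 10 ng/ml Activin A, IM4 held retinoic acid and 0.3 uM of the GSK3 inhibitor CHIR99021, and IM5 held all of these. The induced Sertoli-like cells (iSLC) were IM3-type cells infected with lentiviruses for doxycycline-driven Nr5a1 and Dmrt1 and sorted for CFP after 4 days of doxycycline. The viruses had been collected in IM3 medium, which holds retinoic acid, and were added to the cells in it. The later medium held B27, N-acetylcysteine, EGF, FSH, FGF9, prostaglandin D2, testosterone and 50 ng/ml Activin A. No retinoic acid is listed for it, but the methods do not name its B27 as lacking vitamin A.

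Levels are given as TPM, a scale relative to transcript length and library total, and differences as log2 fold changes with their standard error (SE) from one edgeR fit of all libraries to the estimated counts. A gene was called when its adjusted p was at most 0.01, its fold was at least 2 and its mean normalised count was no less than 100, both across the whole series and in one or other group under comparison. The p-values measure the spread between libraries. The study calls the 3 of a group biological replicates, but nothing in the labels says that they came from separate cultures. In bulk RNA, fewer cells that express a gene and less RNA of it per cell cannot be told apart.

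The libraries held between 35923040 and 84876603 estimated counts. Nanog stood at a mean of 358 TPM in ESC, Fgf5 at 119 TPM in EpiSC and T at 502 TPM in M, each highest in the group it marks. Of the intermediate mesoderm markers, Wt1 reached 149 TPM in IM3, whereas Pax2 had a mean of at most 0.33 TPM in any group and Lhx1 between 0.443 and 3.44 TPM in IM1 to IM5. In iSLC the forced genes Nr5a1 and Dmrt1 stood at 93.8 and 213 TPM. Sox9 stood at 24.8 TPM there, lower than in IM3 (40.04 TPM). Its means in IM1 to IM5 ran from 38.4 TPM in IM4 to 56.9 TPM in IM2. The Sertoli hormone gene Amh stood at 0.56 TPM in iSLC, 0.44 TPM in IM3 and 1.12 TPM in IM1. Reads of 6 red blood cell genes split the groups without overlap, with 4.02 to 27.6 CPM, reads scaled to library size, in ESC, M, IM3 and IM4 and 0.375 to 1.38 CPM in EpiSC, IM1, IM2, IM5 and iSLC. Comparisons across that divide carry this difference too, and its part in them was not tested. IM5 replicate 1 stood apart from the other IM5 libraries, with the largest chi-square per degree of freedom of any replicate pair (53.8 against replicate 2, where the lowest pair had 3.63). Fold changes that rest on IM5 are given with and without IM5 replicate 1. M replicate 2 also stood apart, with 29.8 against M replicate 1 and 38.5 against M replicate 3, where M replicates 1 and 3 had 7.07 between them. Without M replicate 2, Aldh1a2 lost its call in M against EpiSC. No other call of a retinoid gene described here was lost without it in the comparisons with M.

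**Figure D1:**
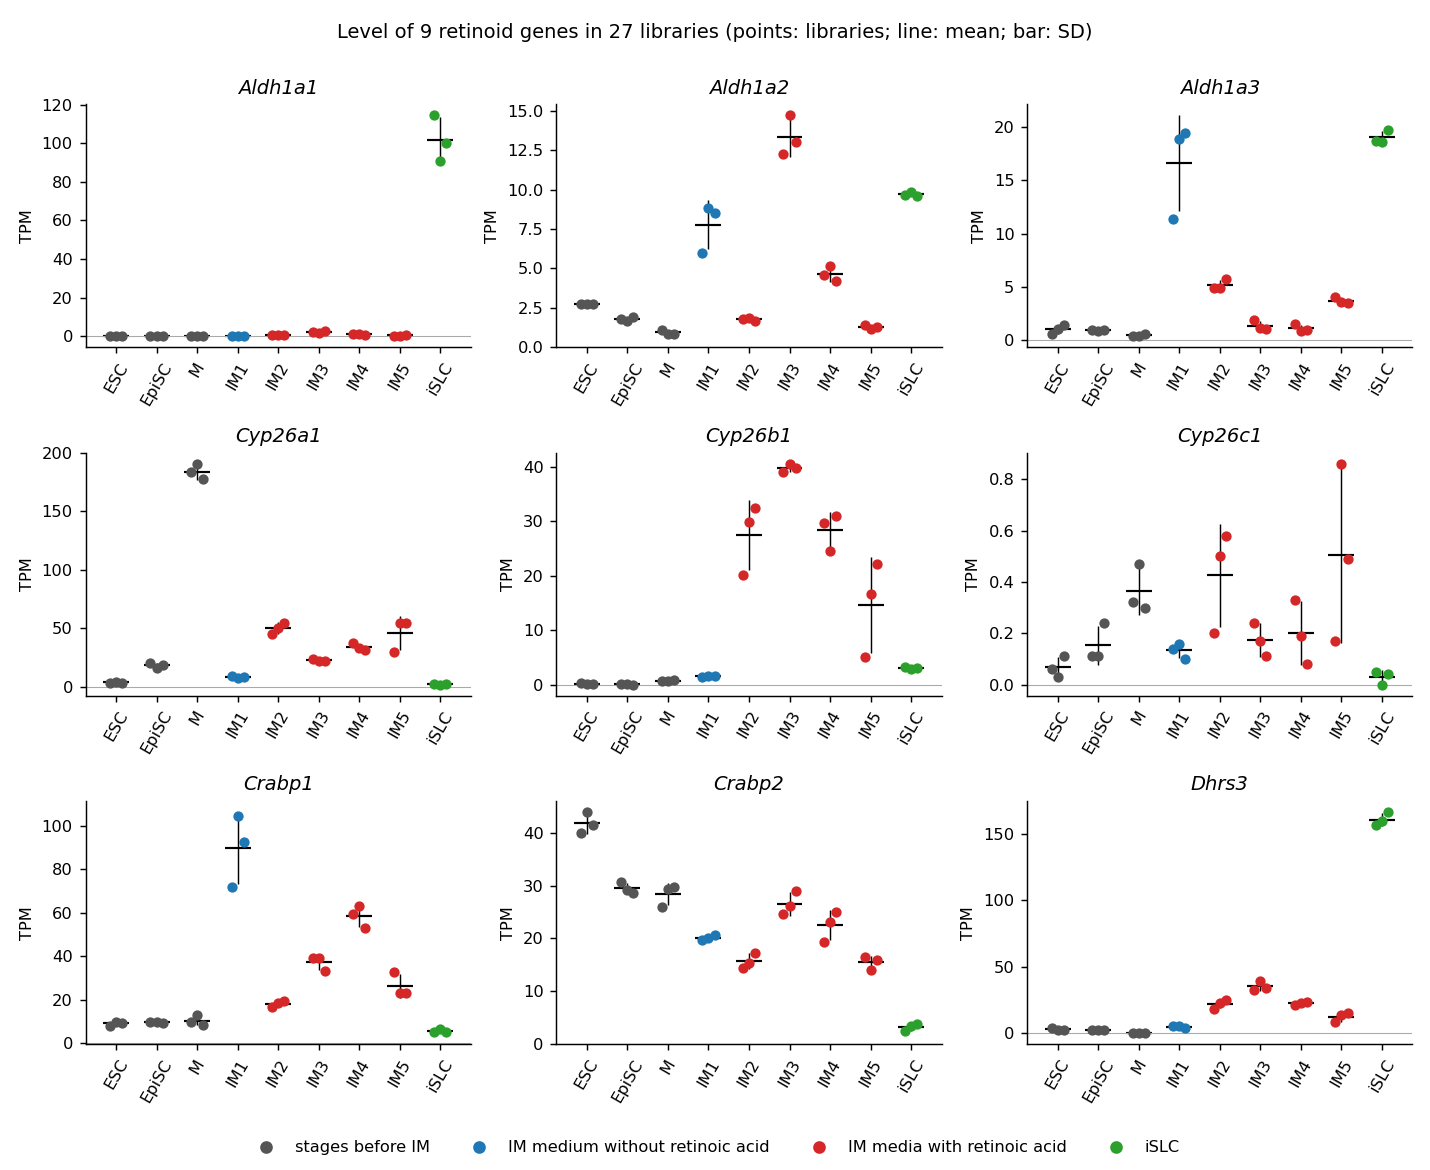
Level in TPM (linear axes, each panel with its own range) of the 9 retinoid genes in every library, with the mean (horizontal line) and SD (vertical bar) of 3 libraries per group. Aldh1a1 and Dhrs3 peak in iSLC at means of 102 and 161 TPM, Cyp26a1 in M at 184 TPM, Cyp26b1 in IM3 at 39.8 TPM and Crabp1 in IM1 at 89.6 TPM.

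Among the synthesis genes, Aldh1a2 (ENSMUSG00000013584, chr9:71215789-71296243, plus strand, GRCm38) encodes the main retinaldehyde dehydrogenase of early mesoderm. Its level was 2.75, 2.72 and 2.74 TPM in ESC, 1.78, 1.67 and 1.94 TPM in EpiSC, and 1.1, 0.85 and 0.87 TPM in M. IM1 held 5.99, 8.82 and 8.53 TPM and IM3 12.3, 14.7 and 13 TPM. These were the highest of the intermediate mesoderm media, and every IM3 library lay above every IM1 library. With CHIR99021 added, IM4 held 4.57, 5.14 and 4.19 TPM. With Activin A added, IM2 held 1.77, 1.84 and 1.68 TPM, and with both, IM5 held 1.43, 1.18 and 1.31 TPM. The iSLC libraries stood at 9.69, 9.85 and 9.61 TPM, below IM3 alone. Only EpiSC and IM2, neighbours in the order of the means, overlapped in their libraries.

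Aldh1a3 (ENSMUSG00000015134, chr7:66390890-66427517, minus strand), which encodes the retinaldehyde dehydrogenase best known from eye and nasal tissue, had another order. It stood at 0.56, 0.98 and 1.4 TPM in ESC, 0.91, 0.87 and 0.96 TPM in EpiSC, and 0.38, 0.41 and 0.58 TPM in M. IM1 held 11.4, 18.9 and 19.5 TPM, against 1.84, 1.14 and 1.06 TPM in IM3 and 1.5, 0.87 and 0.91 TPM in IM4. No library with retinoic acid reached the lowest of IM1. The media with Activin A lay between, with 4.91, 4.87 and 5.71 TPM in IM2 and 4.02, 3.57 and 3.48 TPM in IM5. In iSLC it stood at 18.7, 18.6 and 19.7 TPM, which overlapped with IM1.

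Aldh1a1 (ENSMUSG00000053279, chr19:20492715-20643465, plus strand), whose enzyme is abundant in adult testis and liver, was close to 0 before the retinoic acid media. Its level was 0.09, 0.1 and 0.2 TPM in ESC, 0.12, 0.03 and 0.2 TPM in EpiSC, 0.03, 0.08 and 0.22 TPM in M, and 0.2, 0.1 and 0.23 TPM in IM1, and these 4 groups overlapped. IM3 held 2.17, 1.59 and 2.6 TPM, IM4 0.92, 1.11 and 0.86 TPM, IM2 0.69, 0.83 and 0.87 TPM, and IM5 0.31, 0.31 and 0.56 TPM. In iSLC it stood at 114, 90.6 and 100.1 TPM, with no other group near it. The neighbouring Aldh1a7 (chr19:20692953-20727562, minus strand) is a close copy that lies 49487 bases away, and reads shared between such copies are split by the authors' estimate, so that the Aldh1a1 values are uncertain to that extent. Aldh1a7 was itself listed at 19.3, 14.5 and 18.9 TPM in iSLC, and at 5.14, 5.63 and 5.81 TPM in IM3, above Aldh1a1 there.

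Dhrs3 (ENSMUSG00000066026, chr4:144892827-144928209, plus strand) encodes a reductase that turns retinal back to retinol and so lowers the supply for synthesis. It stood at 3.73, 2.51 and 2.58 TPM in ESC, 2.21, 2.66 and 2.4 TPM in EpiSC, and 0.29, 0.65 and 0.55 TPM in M. IM1 held 5.2, 5.32 and 4.29 TPM, and every library with retinoic acid was above these. IM3 held 32.4, 39.8 and 34.5 TPM, IM4 21.5, 22.7 and 23.9 TPM, and IM2 18.5, 22.9 and 25.2 TPM, of which IM4 and IM2 overlapped. IM5 held 8.25, 13.9 and 15.5 TPM, the first being replicate 1. In iSLC it was 157, 159 and 166 TPM, the highest mean of any member outside M.

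Of the binding proteins, Crabp1 (ENSMUSG00000032291, chr9:54764748-54773110, plus strand) is known from neural crest and mesenchyme. It stood at 7.84, 9.86 and 9.31 TPM in ESC, 9.82, 9.51 and 9.25 TPM in EpiSC, and 9.75, 12.7 and 8.46 TPM in M, which all overlapped. IM1 held 71.8, 105 and 92.5 TPM, IM4 59.5, 63.2 and 52.9 TPM, and IM3 39, 38.9 and 33.2 TPM. IM5 held 32.8, 23 and 22.9 TPM and IM2 16.5, 18.6 and 19.3 TPM, and none of the 5 media overlapped with its neighbour in the order. The iSLC libraries had 4.82, 6.47 and 5.1 TPM, the lowest of all groups.

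Crabp2 (ENSMUSG00000004885, chr3:87948666-87953376, plus strand) encodes a protein that passes retinoic acid to its nuclear receptors. From ESC to IM5 its group means lay between 15.4 and 41.8 TPM, those of Crabp1 between 9 and 89.6 TPM. Crabp2 stood at 40, 43.9 and 41.4 TPM in ESC, 30.7, 29.1 and 28.6 TPM in EpiSC, and 26, 29.4 and 29.7 TPM in M. The media gave 19.8, 20 and 20.6 TPM in IM1, 14.5, 15.4 and 17.3 TPM in IM2, 24.6, 26.1 and 29 TPM in IM3, 19.4, 23.1 and 25 TPM in IM4, and 16.5, 14 and 15.9 TPM in IM5. From EpiSC down to IM1 in the order of means, each group overlapped with the next. In iSLC it stood at 2.39, 3.42 and 3.71 TPM, below every other library.

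Of the degradation genes, Cyp26a1 (ENSMUSG00000024987, chr19:37697798-37701536, plus strand) reached the highest level in TPM. It stood at 3.37, 4.3 and 3.43 TPM in ESC, 20.5, 16.3 and 18.5 TPM in EpiSC, and 184, 191 and 177 TPM in M. IM1 held 9.29, 7.26 and 8.13 TPM, below all libraries with retinoic acid. IM2 held 45.1, 50.3 and 54.8 TPM, IM5 29.2, 54.6 and 54.6 TPM, IM4 37, 32.7 and 31.4 TPM, and IM3 23.2, 22.3 and 22.1 TPM. IM5 overlapped with both IM2 and IM4, through replicate 1 in the latter case. In iSLC it was 2, 1.73 and 2.14 TPM, below every other group.

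Cyp26b1 (ENSMUSG00000063415, chr6:84571414-84593908, minus strand) stood at 0.26, 0.22 and 0.23 TPM in ESC, 0.09, 0.09 and 0.05 TPM in EpiSC, and 0.69, 0.66 and 0.9 TPM in M. IM1 held 1.42, 1.64 and 1.55 TPM, against 39, 40.5 and 39.7 TPM in IM3 and 29.6, 24.5 and 30.9 TPM in IM4. IM2 held 20.2, 29.9 and 32.5 TPM, and IM5 5.03, 16.6 and 22.2 TPM, again with replicate 1 lowest. All libraries with retinoic acid lay above those of IM1 and of iSLC, where the level was 3.34, 2.91 and 3.18 TPM.

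Cyp26c1 (ENSMUSG00000062432, chr19:37685581-37693398, plus strand) lies 4399 bases from Cyp26a1 in the same orientation and was barely detected. Its highest library had 0.86 TPM (51 estimated counts, IM5 replicate 2), and its mean normalised count of 12.8 was under the minimum of 100, so that it could not be called in any comparison. The M libraries had 0.32, 0.47 and 0.3 TPM and the iSLC libraries 0.05, 0 and 0.04 TPM, at most 3 estimated counts each. Each group overlapped with its neighbour in the order. Across the 27 libraries its normalised log2 level went with that of Cyp26a1 (Pearson r = 0.829), a description over libraries that share groups and stages.

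Promoter windows were read from RefSeq (build GRCm38.p6, from 250 bases before to 50 after each gene start). They show the sequence in front of Cyp26a1, Cyp26b1 and Dhrs3, whose enzymes lower retinoic acid or its supply and which were called higher with it. The retinoic acid receptors are known to bind direct repeats of a short half-site, and the consensus half-site AGGTCA, its variant AGTTCA, the form GGGTCA and also the form GGTTCA were searched on both strands as pairs with 1, 2 or 5 bases between. Windows were found for 7 of the 9 genes, 10 windows in all, and not for Aldh1a3 or Crabp2. Of the 7, 1 gene had a match: Cyp26a1, with 5 bases between the half-sites, on the strand opposite to the gene and 15 bases before its start. Rarb, the receptor gene that is itself a classic retinoic acid target, had a match of the same spacing 36 bases before its start and is shown for comparison. At least 1 half-site was found in 2 of the 10 windows. Of all 32851 windows of that length, 32 (0.0974%) held a pair with 5 bases between and 193 (0.588%) a pair of any of these spacings, while 43.7% held at least 1 half-site. The windows are chr19:37697558-37697857 (Cyp26a1, plus), chr14:16575427-16575726 (Rarb, minus), chr6:84593761-84594060 (Cyp26b1, minus) and chr4:144892577-144892876 (Dhrs3, plus, the first of its 3 windows), each written 5′ to 3′ along the gene, with the matched pair and its spacer in capitals.
Cyp26a1: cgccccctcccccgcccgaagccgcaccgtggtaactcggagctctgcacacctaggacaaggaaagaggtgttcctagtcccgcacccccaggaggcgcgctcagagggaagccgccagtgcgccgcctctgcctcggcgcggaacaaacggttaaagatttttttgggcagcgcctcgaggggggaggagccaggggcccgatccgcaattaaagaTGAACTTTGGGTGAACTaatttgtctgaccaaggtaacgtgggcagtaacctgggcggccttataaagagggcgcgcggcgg
Rarb: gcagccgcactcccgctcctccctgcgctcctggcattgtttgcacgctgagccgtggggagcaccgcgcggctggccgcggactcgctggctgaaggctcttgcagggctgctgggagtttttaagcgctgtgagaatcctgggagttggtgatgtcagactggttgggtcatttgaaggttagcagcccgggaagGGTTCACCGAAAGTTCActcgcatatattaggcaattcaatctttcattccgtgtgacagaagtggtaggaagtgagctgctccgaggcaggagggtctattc
Cyp26b1: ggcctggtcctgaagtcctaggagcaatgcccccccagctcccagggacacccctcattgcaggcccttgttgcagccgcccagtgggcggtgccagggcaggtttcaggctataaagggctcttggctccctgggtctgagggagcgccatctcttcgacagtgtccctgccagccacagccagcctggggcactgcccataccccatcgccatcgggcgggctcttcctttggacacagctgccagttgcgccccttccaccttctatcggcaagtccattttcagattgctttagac
Dhrs3: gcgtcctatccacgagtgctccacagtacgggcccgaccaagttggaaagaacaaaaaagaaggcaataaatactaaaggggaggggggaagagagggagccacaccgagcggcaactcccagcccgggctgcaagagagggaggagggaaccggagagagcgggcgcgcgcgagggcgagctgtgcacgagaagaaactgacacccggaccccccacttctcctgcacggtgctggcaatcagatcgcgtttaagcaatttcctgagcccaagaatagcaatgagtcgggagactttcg
A match is a description of letters and was not tested as a binding site. The windows of Cyp26b1 and Dhrs3, printed for contrast, and those of Aldh1a1, not printed, held no such pair, which says only that these letters are not in these 300 bases.

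The effect of retinoic acid was read first from IM3 against IM1, whose media differ only in it. Cyp26a1, Cyp26b1 and Dhrs3, whose enzymes lower retinoic acid or its supply, rose, as did Aldh1a1, while Aldh1a3 and Crabp1 fell. Cyp26b1 rose most, by 4.60 on the log2 scale (SE 0.30, adjusted p = 1.40e-12, edgeR), followed by Aldh1a1 (3.5, SE 0.31, adjusted p = 3.72e-10), Dhrs3 (2.79, SE 0.15, adjusted p = 3.17e-14) and Cyp26a1 (1.36, SE 0.15, adjusted p = 2.96e-08). Aldh1a3 fell by 3.94 (SE 0.18, adjusted p = 6.60e-16) and Crabp1 by 1.4 (SE 0.16, adjusted p = 4.60e-08). Aldh1a2 had a log2 fold change of 0.68 (SE 0.11, adjusted p = 1.61e-05), under the fold of 2, and Crabp2 one of 0.28 (SE 0.11, adjusted p = 0.0418). So 6 of the 9 genes were called, 4 higher and 2 lower, where 6.34% of the 20839 genes tested were called. With IM1 and IM3 alone in the fit, Aldh1a1 had 3.49 (adjusted p = 3.45e-06) but missed the count minimum. The median log2 fold change of the 9 was 0.68, against 0 over all genes tested. IM3 had 6.14 to 19.6 CPM of red blood cell reads and IM1 0.923 to 1.38 CPM. The 4 primitive erythroid markers summed to 96.7 to 119 TPM in IM3 and 20.7 to 29.9 TPM in IM1 (3 called higher), and the 4 cardiac muscle markers to 229 to 456 TPM and 125 to 158 TPM (3 called higher). The 4 endothelial markers summed to 62.4 to 73.8 TPM in IM3 and 119.9 to 132 TPM in IM1 (3 called lower), and the 3 of definitive endoderm to 6.3 to 7.32 TPM and 28.4 to 32.4 TPM (2 called lower). The 4 genital ridge markers summed to 477 to 511 TPM in IM3 and 79.6 to 90.9 TPM in IM1 (2 called higher). No marker of these lists was at 0 in all libraries of either group, and the part of these cells was not tested.

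The mean of the 4 media with retinoic acid was also set against IM1, with 7 of the 9 genes called, 4 higher and 3 lower, beside 3.8% of all genes tested. Of these media IM2 and IM5 also held Activin A, and IM4 and IM5 CHIR99021, so that this mean carries more than retinoic acid. Over the 12 libraries with retinoic acid, Cyp26a1 ranged from 22.1 to 54.8 TPM around a median of 34.8, Cyp26b1 from 5.03 to 40.5 TPM around 29.7, Dhrs3 from 8.25 to 39.8 TPM around 22.8, and Aldh1a1 from 0.31 to 2.6 TPM around 0.865. These 4 genes were above all 3 libraries of IM1, and Aldh1a3 and Crabp1 were below them, while Aldh1a2, Cyp26c1 and Crabp2 overlapped. The log2 fold change was 4.02 for Cyp26b1 (SE 0.28), 2.29 for Aldh1a1 (SE 0.29), 2.15 for Dhrs3 (SE 0.13) and 2.09 for Cyp26a1 (SE 0.13). Aldh1a3 fell by 3.10 (SE 0.11), Crabp1 by 1.56 (SE 0.11) and Aldh1a2 by 1.22 (SE 0.09, adjusted p = 9.09e-12, edgeR). Aldh1a2 thus had a positive log2 fold change for IM3 alone and a negative one for the mean, its level in IM2, IM4 and IM5 being below that of every IM1 library. Without IM5 replicate 1 the values were 4.11 for Cyp26b1, 2.32 for Aldh1a1, 2.20 for Dhrs3, 2.14 for Cyp26a1, -3.10 for Aldh1a3, -1.62 for Crabp1 and -1.26 for Aldh1a2, all called. Both comparisons share the IM1 and IM3 libraries. With only IM1 to IM5 in the fit, Aldh1a1 had 2.27 for the mean against IM1 (adjusted p = 2.1e-06, edgeR) but missed the count minimum. In IM2 and IM5 alone, whose red blood cell reads were as low as in IM1 (a choice made after seeing the data), the log2 fold change against IM1 was 3.66 for Cyp26b1 (SE 0.28), 2.51 for Cyp26a1 (SE 0.14), 1.77 for Dhrs3 (SE 0.14), -2.16 for Aldh1a3 (SE 0.12), -2.06 for Crabp1 (SE 0.13) and -2.39 for Aldh1a2 (SE 0.11), all called. Over the 20839 genes tested, 657 were called. Both media also held Activin A, which IM1 lacked, and IM5 held CHIR99021. Retinoic acid and these additions cannot be told apart there. Aldh1a1 had 1.63 there (SE 0.34, adjusted p = 3.61e-04, edgeR) and was not called, since its normalised count stayed under the minimum in these groups. Without IM5 replicate 1 the same 6 genes were called, at 3.86 for Cyp26b1, 2.62 for Cyp26a1, 1.89 for Dhrs3, -2.16 for Aldh1a3, -2.19 for Crabp1 and -2.45 for Aldh1a2, and Aldh1a1 had 1.68 and was not. Over all genes tested in that fit, 661 were called.

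**Figure D2:**
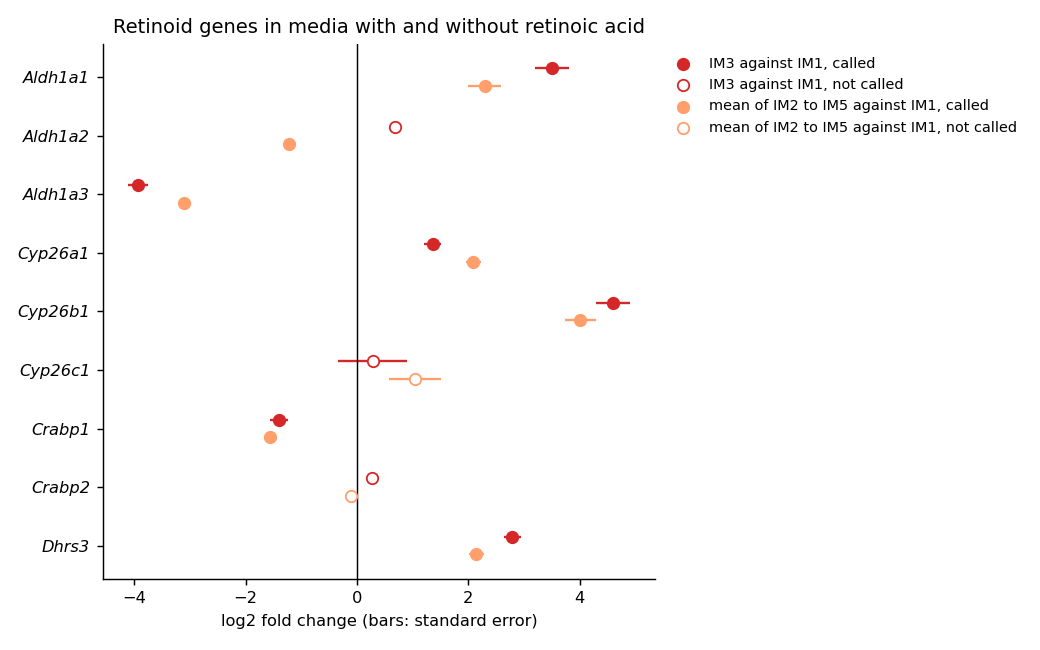
Log2 fold change (horizontal axis, bars give the standard error) of the 9 genes in IM3 and in the mean of the 4 media with retinoic acid, each against IM1, with filled points for called genes. Cyp26b1 lies furthest to the right at 4.60 and 4.02, Aldh1a3 furthest to the left at -3.94 and -3.10, and Aldh1a2 is on either side of 0.

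The wider pathway and known response genes were read from lists. Of 13 retinoic acid response genes, 5 were called in IM3 against IM1, all higher, among them Rarb by 5.71 on the log2 scale (SE 0.19, adjusted p = 2.45e-18, edgeR), the homeobox genes Meis1 by 3.03 and Meis2 by 2.23, and the transglutaminase gene Tgm2 by 1.05. Over all 20839 genes tested 6.34% were called, 545 higher and 776 lower. The median of the 13 was 1.05, against 0 over all genes. Rarb went from 1.16, 0.73 and 0.64 TPM in IM1 to 44.2, 47.1 and 47.9 TPM in IM3, and its lowest library with retinoic acid was IM5 replicate 1 at 11.9 TPM. Of the 32 pathway genes, 27 were tested and 6 called, 2 higher and 4 lower, with a median of 0.04, beside the same share over all genes. Cyp1b1, a P450 that can oxidise retinol, rose by 2.77 (SE 0.14) and Fabp5, a fatty acid carrier that also binds retinoic acid, by 1.09 (SE 0.07). Stra6l, a retinol-binding protein receptor, fell by 4.11 (SE 0.24), Dhrs9 by 2.48 (SE 0.19), Rdh10 by 1.23 (SE 0.09) and Rdh5 by 1.01 (SE 0.15). The last 3 encode dehydrogenases that act on retinol and related substrates, and Rdh10 is the main one of the embryo, at 21.7, 16.2 and 17.8 TPM in IM1 and 8.83, 7.84 and 8.8 TPM in IM3. Exons of Rarb overlap those of Top2b on the opposite strand over 34.1% of their bases, and the use of strand in the counting is not given in the sources used here. Those of Rdh5 overlap exons of Bloc1s1 on the same strand over 25.6%, so that both genes are uncertain to that extent.

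Along the route before the intermediate mesoderm, Cyp26a1 was the member that rose at both steps. From ESC to EpiSC it rose by 2.33 on the log2 scale (SE 0.17, adjusted p = 6.79e-12, edgeR) and was the 1 member called, where 8.07% of all genes were. From EpiSC to M it rose by a further 3.24 (SE 0.14, adjusted p = 8.18e-17), and Cyp26b1 rose by 3.28 (SE 0.69, adjusted p = 1.40e-04) from a level of at most 0.09 TPM. Aldh1a2 fell by 1.01 (SE 0.15, adjusted p = 1.77e-06), just past the fold of 2 (-0.93 and not called when M replicate 3 was left out, and likewise lost without EpiSC replicate 3 or M replicate 2), and Dhrs3 by 2.55 (SE 0.31, adjusted p = 4.33e-08). These 4 of 9 stand beside 14.5% of all genes called. With EpiSC and M alone in the fit 1 member was called, Cyp26b1 and Dhrs3 missing the count minimum and Aldh1a2 the fold. The red blood cell reads differed between both pairs of groups, with 0.589 to 0.866 CPM in EpiSC and 12.5 to 21.3 CPM in M, and cannot be told apart from the stage.

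On leaving M for the medium without retinoic acid, Cyp26a1 fell and both Aldh1a2 and Aldh1a3 rose. In IM1 against M, Cyp26a1 fell by 4.58 (SE 0.16, adjusted p = 2.54e-19, edgeR), while Aldh1a3 rose by 5.24 (SE 0.20), Dhrs3 by 3.46 (SE 0.28), Crabp1 by 3.05 (SE 0.18) and Aldh1a2 by 2.95 (SE 0.14, adjusted p = 3.57e-16). That is 5 of 9 genes, 4 higher and 1 lower, beside 15.7% of all genes. M had 12.5 to 21.3 CPM of red blood cell reads and IM1 0.923 to 1.38 CPM. The 4 cardiac muscle markers summed to 8.51 to 11 TPM in M and 125 to 158 TPM in IM1 (4 called higher). The 4 endothelial markers summed to 51.9 to 64.6 TPM and 119.9 to 132 TPM (3 called higher). Those of primitive erythroid cells summed to 0.08 to 0.43 TPM and 20.7 to 29.9 TPM (2 called higher). The part of these differences was not tested. IM3 against M called 7 of 9, 6 higher and 1 lower, beside 14.9% of all genes. The 6 red blood cell genes were on the same side of the divide in M and IM3, but the 4 primitive erythroid markers summed to 0.08 to 0.43 TPM in M and 96.7 to 119 TPM in IM3 (3 called higher), and the 4 cardiac muscle markers to 8.51 to 11 TPM and 229 to 456 TPM (4 called higher), and their part was not tested. Here Dhrs3 rose by 6.25 (SE 0.23), Cyp26b1 by 5.55 (SE 0.34), Aldh1a1 by 4.03 (SE 0.36), Aldh1a2 by 3.64 (SE 0.14), Crabp1 by 1.65 (SE 0.18) and Aldh1a3 by 1.3 (SE 0.25), and Cyp26a1 fell by 3.22 (SE 0.15). Without IM3 replicate 1 the value of Aldh1a3 was 1.17 and not called, and with these groups alone in the fit Aldh1a3 and Aldh1a1 missed the count minimum. Both comparisons share the M libraries. Of the 27 pathway genes tested, 10 were called in IM1 against M, 7 higher and 3 lower. Rbp4 and Ttr, which encode the blood carriers of retinol and were picked out after their values were seen, went from 2.76 to 3.13 TPM and 0.73 to 1.42 TPM in M to 217 to 237 TPM and 116 to 134 TPM in IM1.

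**Figure D3:**
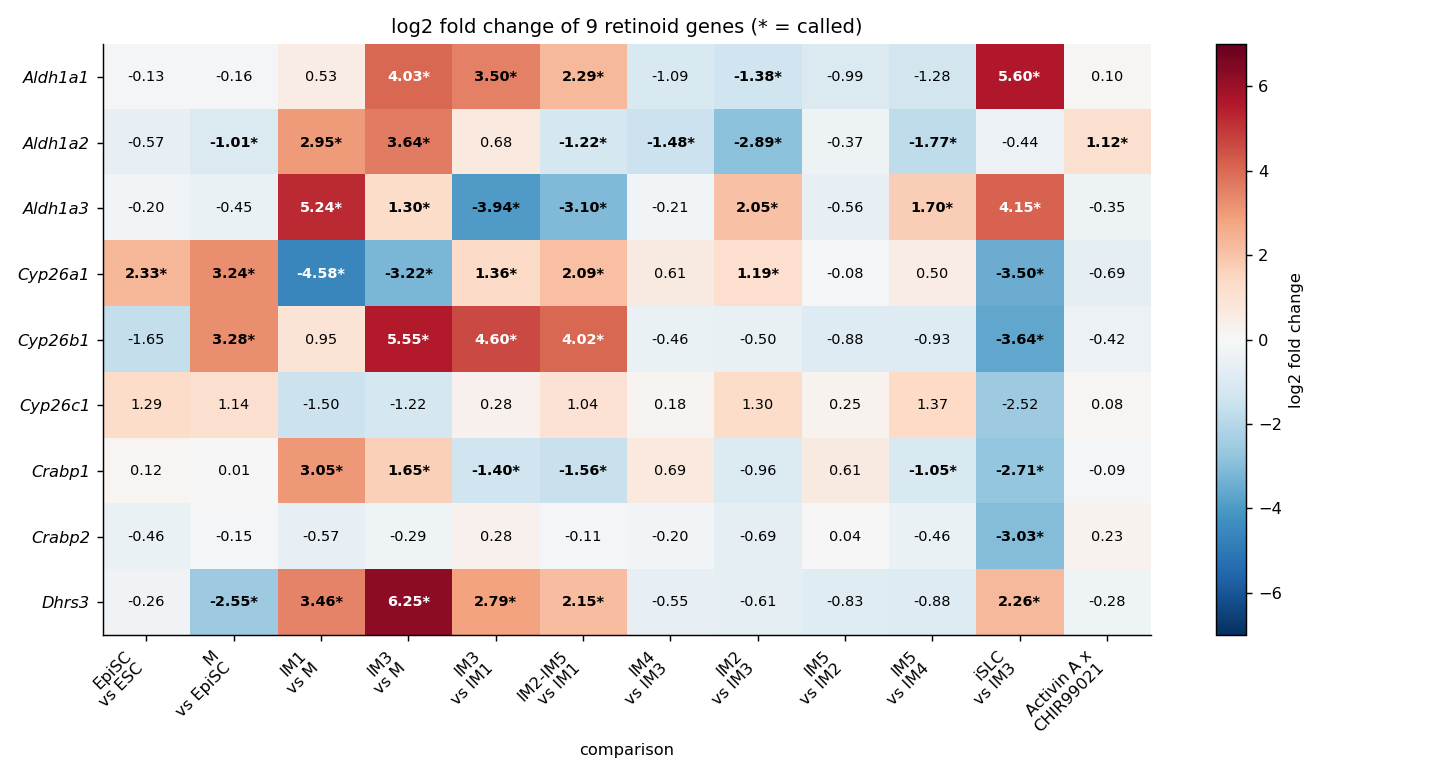
Log2 fold change of each member (rows) in each of the 12 comparisons (columns), coloured from blue (lower in the first group named) to red (higher), with an asterisk and bold type for called values. Dhrs3 has the highest value, 6.25 in IM3 against M, and Cyp26a1 the lowest, -4.58 in IM1 against M.

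Activin A and CHIR99021 were compared among the 4 media with retinoic acid. Activin A without CHIR99021 (IM2 against IM3) went with less Aldh1a2, which fell by 2.89 (SE 0.13, adjusted p = 4.67e-15, edgeR), and less Aldh1a1, which fell by 1.38 (SE 0.24, adjusted p = 5.04e-05). Aldh1a3 rose by 2.05 (SE 0.18, adjusted p = 1.09e-09) and Cyp26a1 by 1.19 (SE 0.14, adjusted p = 1.54e-07). These 4 of 9 genes, 2 in each direction, stand beside 3.8% of all genes, and Aldh1a1 missed the count minimum with these groups alone in the fit. Crabp1 had a log2 fold change of -0.96 (SE 0.17), just under the fold of 2. With CHIR99021 present (IM5 against IM4), Aldh1a2 fell by 1.77 (SE 0.14, adjusted p = 6.53e-11), Crabp1 fell by 1.05 (SE 0.16, adjusted p = 6.45e-06) and Aldh1a3 rose by 1.70 (SE 0.19, adjusted p = 3.46e-08), 3 of 9 beside 4.09% of all genes. Without IM5 replicate 1 these log2 fold changes were -1.88, -1.3 and 1.72, all called, and no other member was. The call of Crabp1 was lost without IM4 replicate 2, IM5 replicate 2 or IM5 replicate 3, with values down to -0.93. The groups with Activin A had 0.375 to 0.859 CPM of red blood cell reads and those without it 6.14 to 19.7 CPM, so that Activin A and this divide cannot be told apart in these media. From IM3 to IM2 the sum of the 4 primitive erythroid markers went from 96.7 to 119 TPM to 6.19 to 7.15 TPM and that of the 4 cardiac muscle markers from 229 to 456 TPM to 119 to 149 TPM, with 3 called lower in each list. From IM4 to IM5 the erythroid sum went from 130.2 to 213 TPM to 13.3 to 16.1 TPM. The cardiac sum went from 114.5 to 143 TPM to 50.8 to 60.5 TPM, again with 3 called lower in each list. The 4 genital ridge markers summed to 477 to 511 TPM in IM3 and 172 to 176 TPM in IM2. In IM4 they summed to 347 to 385 TPM and in IM5 to 114 to 118 TPM, with 1 called lower in each pair. The 3 definitive endoderm markers summed to 6.3 to 7.32 TPM in IM3 and 16 to 21.1 TPM in IM2 (2 called higher). In IM4 they summed to 7.46 to 9.34 TPM and in IM5 to 22.7 to 24.7 TPM (1 called higher). The part of all these cells was not tested.

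CHIR99021 in the absence of Activin A (IM4 against IM3) gave 1 call among the members, where 0.101% of all genes were called: Aldh1a2 fell by 1.48 (SE 0.12, adjusted p = 6.75e-08, edgeR). Aldh1a1 had a log2 fold change of -1.09 (SE 0.24) and an adjusted p of 0.0109, just past the threshold. The 4 cardiac muscle markers summed to 229 to 456 TPM in IM3 and 114.5 to 143 TPM in IM4, with none at 0. The 4 genital ridge markers summed to 477 to 511 TPM in IM3 and 347 to 385 TPM in IM4 (0 called). The part of both in the result was not tested. In the presence of Activin A (IM5 against IM2) 0 of the 9 genes were called by edgeR and 0 by DESeq2, beside 0.235% of all genes, though 6 of 9 had an unadjusted p under 0.05. The value nearest to a call was Dhrs3, with a log2 fold change of -0.83 (SE 0.14, adjusted p = 2.88e-04), and without IM5 replicate 1 it was -0.60 (SE 0.11, adjusted p = 1.12e-03), while without replicate 3 both Dhrs3 (-1.01) and Cyp26b1 (-1.32) were called. Cyp26b1 without replicate 1 had a log2 fold change of -0.48 (adjusted p = 0.0374, edgeR) and was not called. The difference between the 2 effects of CHIR99021 was tested as an interaction, which called 0.0336% of all genes and 1 member, Aldh1a2. Its log2 value was 1.12 (SE 0.19, adjusted p = 3.69e-03): CHIR99021 went with a change of -1.48 without Activin A and of -0.37 (SE 0.15) with it. The latter was -0.49 (SE 0.17) without IM5 replicate 1. Without IM5 replicate 1 the interaction was 1.01 with an adjusted p of 0.0168, which is no longer a call, and the call was also lost without IM2 replicate 1 or 3, IM3 replicate 2, or IM4 replicate 1 or 3.

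**Figure D4:**
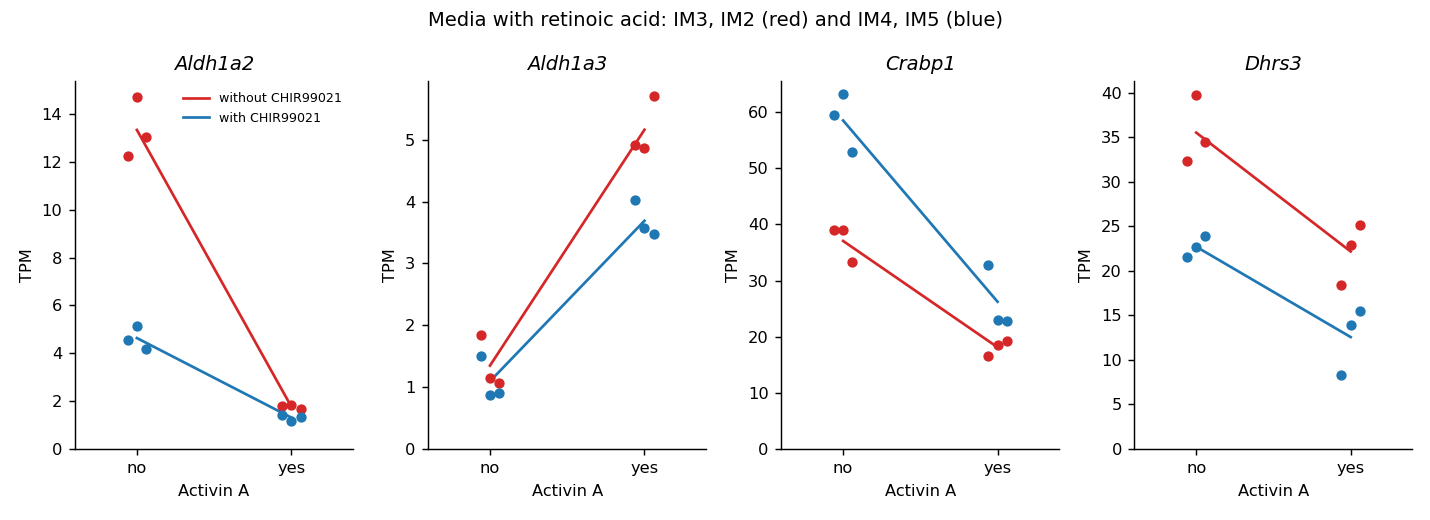
Level in TPM (linear axes from 0) of Aldh1a2, Aldh1a3, Crabp1 and Dhrs3 in the 4 media with retinoic acid, without and with Activin A (horizontal axis) and CHIR99021 (colour), with a point per library and lines between the means. For Aldh1a2 the means are 13.3 and 4.63 TPM without Activin A and closer together, at 1.76 and 1.31 TPM, with it, where the libraries of IM2 and IM5 do not overlap.

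The Sertoli-like cells differed from IM3 in 7 of 9 members, beside 19.2% of all genes. Of the synthesis genes, 2 of 3 were higher, and so was Dhrs3: Aldh1a1 rose by 5.60 (SE 0.18, adjusted p = 7.10e-20, edgeR), Aldh1a3 by 4.15 (SE 0.18, adjusted p = 2.73e-17) and Dhrs3 by 2.26 (SE 0.13, adjusted p = 2.72e-14). Of the degradation genes 2 of 3 were lower, and both binding genes were: Cyp26b1 fell by 3.64 (SE 0.29), Cyp26a1 by 3.5 (SE 0.19), Crabp2 by 3.03 (SE 0.14) and Crabp1 by 2.71 (SE 0.19), each with an adjusted p of at most 8.78e-12. Aldh1a2 had a log2 fold change of -0.44 (SE 0.11, adjusted p = 1.30e-03), under the fold of 2, though all iSLC libraries lay below those of IM3, and Cyp26c1 was under the count minimum. The forced factors, the medium, the sort and the red blood cell reads (0.73 to 0.971 CPM in iSLC) all changed together and cannot be told apart. The 4 endothelial markers, whose sum was 62.4 to 73.8 TPM in IM3, summed to 3.04 to 4.14 TPM in iSLC (4 called lower). The 4 primitive erythroid markers summed to 96.7 to 119 TPM in IM3 and 0.1 to 0.27 TPM in iSLC (3 called lower). The 4 cardiac muscle markers summed to 229 to 456 TPM and 147.6 to 148.2 TPM (3 called lower). The part of these cells in the member values was not tested. Of the 27 pathway genes tested, 8 were called, 4 in each direction. Picked out after its values were seen, Adh1, a retinol-oxidising alcohol dehydrogenase, rose by 5.72 (SE 0.21) to 29.5, 21.5 and 28.2 TPM. Of the 13 response genes 4 were called, 2 in each direction, with Tgm2 higher by a log2 fold change of 1.11 (SE 0.11). Rarb stood at 26.6, 27 and 28.2 TPM, between IM5 and IM2 in its mean.

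The summed levels of the synthesis and degradation enzymes crossed over along the route. In M the 3 Aldh1a genes summed to 1.34 to 1.67 TPM and the 3 Cyp26 genes to 178.5 to 192 TPM, a ratio of synthesis to degradation of 0.00818 ± 0.00118 (SD, n = 3). The ratio was 0.969 ± 0.163 in ESC and 0.152 ± 0.0148 in EpiSC. It was 2.53 ± 0.79 in IM1, where the sums were 17.6 to 28.2 TPM and 9.06 to 10.9 TPM. In all 4 media with retinoic acid it was below 1, at 0.1 ± 0.0109 in IM2, 0.269 ± 0.00809 in IM3, 0.108 ± 0.0146 in IM4 and 0.102 ± 0.0564 in IM5 (0.0697 over the other 2 libraries without replicate 1). In iSLC the order was turned, with 119 to 143 TPM against 4.64 to 5.39 TPM and a ratio of 25.4 ± 1.18. Sums of mRNA levels are not enzyme activities, and no test was made of them.

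**Figure D5:**
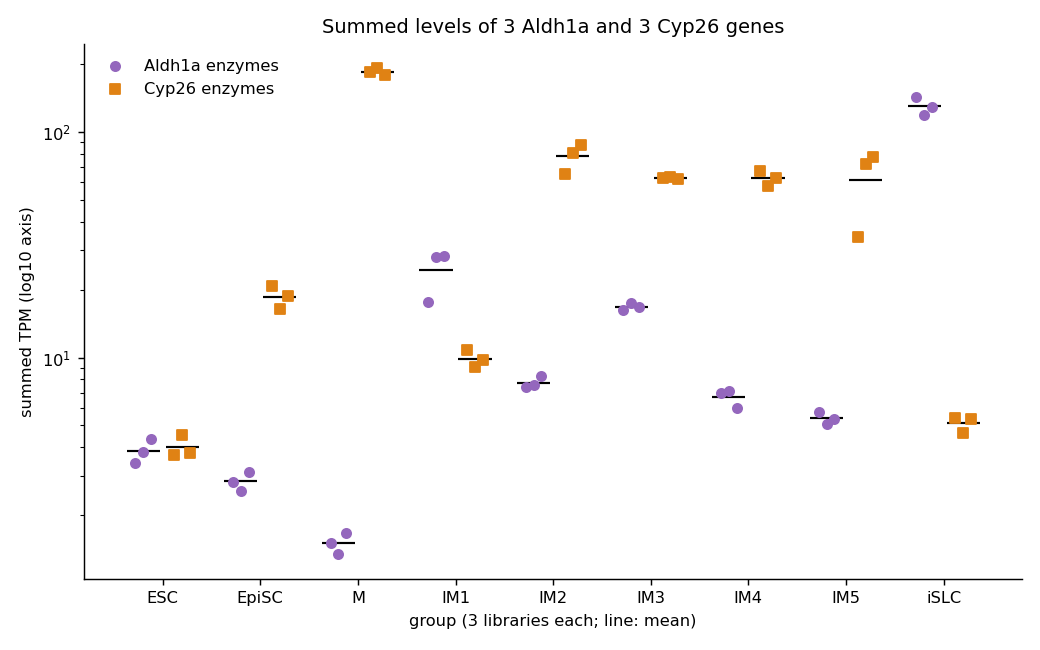
Summed TPM (log10 axis) of the 3 Aldh1a genes (purple circles) and of the 3 Cyp26 genes (orange squares) in each library, with lines at the group means. The Cyp26 sum is highest in M at a mean of 185 TPM and the Aldh1a sum in iSLC at 130 TPM, and the Aldh1a sum lies above the other in all libraries of IM1 and iSLC and in 1 of ESC.

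The genes most like each member were named by Pearson r of normalised log2 levels over the 27 libraries, which share groups, so that r mostly follows the group means. Aldh1a1 was most like Mgll (0.974) and Golga7 (0.97), Aldh1a2 like Fbxo32 (0.895) and Sgpp1 (0.893), and Aldh1a3 like Sh3bgrl3 (0.954) and Map1lc3a (0.951). Dhrs3 was most like Hic1 (0.987) and Acox3 (0.977). For the binding proteins these were Arl14 (0.913) and Maob (0.909) with Crabp1, and the replication genes Pole2 (0.986) and Mcm3 (0.985) with Crabp2. Cyp26a1 was most like Ccdc134 (0.945) and Pde3b (0.942), Cyp26b1 like Ttc17 (0.977) and Rps6ka3 (0.975), and Cyp26c1 like Fam19a5 (0.843) and Arl4c (0.832). Among the members themselves the highest r was 0.865, between Aldh1a1 and Dhrs3, and the lowest -0.877, between Aldh1a1 and Crabp2.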

How the data were processed

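Total RNA of 27 libraries (9 groups of 3, grouped and numbered by their labels) was sequenced as 75-base read pairs from TruSeq V2 libraries. The submitters' processing notes name cutadapt 1.9.1, STAR 2.5.2a, RSEM 1.3.0 and build GRCm38. Per gene and library the authors deposited the expected count, which RSEM need not give as a whole number, the TPM and the FPKM. TPM gave the levels, and FPKM the alternative order of groups. FPKM and TPM are scaled within a library, so that a few abundant genes can shift the rest.

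Expected counts were rounded and fitted in edgeR 4.0.16 (R 4.3.3) with filterByExpr, TMM factors, 1 coefficient per group and the quasi-likelihood test over 20839 genes, adjusted by Benjamini-Hochberg. Calls used adjusted p at most 0.01, fold at least 2 and a normalised count of at least 100, after the thresholds in the study's methods. The scripts were tested on simulated data. DESeq2 1.42.0 was an alternative, as were other size factors, a length offset, no filter, other thresholds, a replicate block, only the groups compared and leaving out each library. Offsets for GC content and IM2 with IM5 alone (with and without IM5 replicate 1) were added after seeing the data. The genes named were all 9 members, the 2 genes most like each, and up to 6 called genes of each list in IM3 against IM1, of which some are not reported here. Members and lists were chosen with earlier results of these data known. Gene positions are from GENCODE on GRCm38 (99.26% of genes matched). Depth, 35923040 to 84876603 counts per library, leaves genes near 3 counts without a fold. Replicates were checked for duplicates, and no pair agreed within sampling noise.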

Additional observations from a re-analysis of the deposited data

Results flagged for a closer look

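Aldh1a2 was picked out because the effect of CHIR99021 on it differed between media without and with Activin A by a test of the difference itself. The interaction was 1.12 on the log2 scale (SE 0.19, adjusted p = 3.69e-03, edgeR over all genes), with the level falling in IM4 against IM3 and the 3 libraries of IM5 all below the 3 of IM2. The call did not hold when only the 4 media were fitted (1.12, adjusted p = 0.0162, edgeR). It was also lost without IM5 replicate 1 (1.01, adjusted p = 0.0168, edgeR).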

How the results depend on the processing

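Of 108 member values (9 genes in 12 comparisons), 46 were called and 36 of these kept direction and call under every alternative run. None of the 46 changed direction, 10 lost their call under at least 1 alternative, and 17 of the other 62 gained one. Fitting only the groups compared took part in 9 of the losses: 7 missed the count minimum, which was then taken over those libraries, Aldh1a2 in M against EpiSC missed the fold (-0.96) and the interaction missed the p (0.0162). That fit left 1 member called in M against EpiSC, 12 genes in IM4 against IM3, and 3 genes and 0 members in the interaction. The genes and counts moved most with the thresholds. Without the count minimum the genes called were 3826 (EpiSC against ESC), 5842 (M against EpiSC), 5818 (IM1 against M), 5402 (IM3 against M), 2497 (IM3 against IM1), 1688 (mean of IM2 to IM5), 36 (IM4 against IM3), 1509 (IM2 against IM3), 101 (IM5 against IM2), 1667 (IM5 against IM4) and 7015 (iSLC against IM3). Without the fold minimum they were, in that order, 7857, 9645, 9940, 9485, 7198, 6507, 197, 5430, 808, 6631 and 10507, with 36 in the interaction, and members called were 3 in EpiSC against ESC, 7 in IM2 against IM3, 1 in IM5 against IM2 and 7 in IM5 against IM4. In IM4 against IM3, 2 members (Aldh1a2 and Aldh1a1) were called at an adjusted p of 0.05, with DESeq2 size factors, without the low-count filter, with the GC offset alone or with the block, and by DESeq2. The interaction called 3 genes with the length offset, 13 without the low-count filter and 11 by DESeq2.

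With the replicate block, 2 members were called in IM4 against IM3, Cyp26b1 was called in IM5 against IM4 (-1.01, against -0.52 with an adjusted p of 3.58e-03 and no call in the fit without the block and without IM5 replicate 1) and the value of Crabp1 in M against EpiSC was -0.0021. Same-numbered libraries did not deviate together (mean correlation 0.00242, from -0.113 to 0.0794 over pairs of groups), so that the numbers are not shown to pair them. Leaving out 1 library gave 12 to 25 genes and 1 to 2 members in IM4 against IM3, 0 to 2 members in IM5 against IM2 (Cyp26b1 and Dhrs3 without IM5 replicate 3), and 2 to 6 genes and 0 to 1 members in the interaction. Values not called that changed sign ranged from -0.81 to 0.30 (Aldh1a1) and -0.35 to 0.065 (Aldh1a3) in EpiSC against ESC, -1.15 to 0.52 (Aldh1a1) and -0.20 to 0.16 (Crabp1) in M against EpiSC, -0.059 to 0.51 (Cyp26c1) in IM3 against IM1 and -0.30 to 0.53 (Cyp26c1) in IM4 against IM3. In IM5 against IM2 they ranged from -0.34 to 0.66 (Cyp26c1), -0.062 to 0.13 (Crabp2) and -0.21 to 0.14 (Cyp26a1), and in the interaction from -0.19 to 0.26 (Aldh1a1), -0.52 to 0.56 (Cyp26c1) and -0.33 to 0.032 (Crabp1). Cyp26c1, with few counts in any library, and Aldh1a1 before IM2 to IM5 are limited by depth. In IM2 and IM5 alone against IM1, 6 members were called, with or without IM5 replicate 1, beside 657 of all genes tested with it and 661 without it. The cause of each change not stated above was not tested.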
